A study of Homo sapiens with 6 samples.

Results

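The IRE1 and ATF6 branches of the unfolded protein response were described in the human colorectal cancer line HCT116 through 9 genes matched by symbol to the 26255 genes of the deposited tables. The 9 genes were ERN1, XBP1, ATF6, ATF6B, MBTPS1, MBTPS2, CREB3, CREB3L2 and CREBRF, and all 9 were found in every library. RNA-seq libraries of 3 groups were compared, with 2 libraries per group. The groups were parent HCT116 cells and cells treated by either siLINC01534-1 or siLINC01534-2, both siRNAs being directed at the long noncoding RNA LINC01534. No source used here says that parent cells were transfected, and an effect of transfection and an effect of the siRNA target cannot be told apart. Nothing in the labels says whether the 2 libraries of a group came from separate cultures, and the p-values measure the spread between these libraries only.

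Misfolded protein in the endoplasmic reticulum (ER) is sensed by the transmembrane proteins IRE1, ATF6 and PERK. IRE1 (encoded by ERN1) is a kinase and ribonuclease that cuts a short intron from XBP1 mRNA, and the spliced form encodes the active transcription factor XBP1s. ATF6 travels to the Golgi, where site-1 protease (MBTPS1) and then site-2 protease (MBTPS2) release its transcription factor domain, and the same proteases process ATF6B, members of the CREB3 family and the sterol regulators of the SREBP family. Splicing and cleavage are changes of form, whereas the values here are gene-level mRNA amounts, so neither was measured.

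Expression was given as FPKM, a read number scaled to transcript length and library size, from libraries estimated to hold between 8700000 and 10400000 reads. LINC01534 had an FPKM of 0.285 and 0.571 in the parent libraries, 0 and 0.283 under siLINC01534-1, and 0.66 and 0.551 under siLINC01534-2. It was too low in every library to enter the test. The siLINC01534-2 libraries were not below parent, and at this level the values can neither bear out nor contradict the labels, by which the groups are called. Of the epithelial and colon markers, EPCAM, CDH1, KRT8, KRT18, KRT19 and CDX2 had an FPKM of at least 1 in all 6 libraries (CDX2 from 6.89 to 9.89), while VIL1 reached at most 0.0453. Markers of other cell types were low. PTPRC and PECAM1 were at most 0.0463, VIM lay between 0.64 and 1.23, and COL1A1 between 3.02 and 5.79. Summed over these 4 genes, FPKM ranged from 3.97 to 4.27 in parent, from 5.98 to 6.46 under siLINC01534-1 and from 4.46 to 5.22 under siLINC01534-2. The sum over the 7 epithelial and colon markers ranged from 3458 to 3522, from 2927 to 2932 and from 3335 to 3521. The epithelial sum was lower under siLINC01534-1 and overlapped parent under siLINC01534-2, while the sum of the other markers was above parent under both. The largest terms of the epithelial sum were KRT8, KRT18 and KRT19 (median FPKM 1621, 920 and 553). COL1A1 (median 4.02) was the largest term of the other sum, so each sum follows few genes. The part of these markers in the results that follow was not tested.

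Groups were compared with limma on log2(FPKM + 1), and a gene was called at a Benjamini-Hochberg adjusted p under 0.05 over 12203 genes, those whose FPKM averaged 1 or more. The filter was passed by 8 of the 9 genes in each group, whereas CREBRF averaged 0.698 in parent and passed it only through the siRNA groups, where it was high. CREBRF had to differ in order to be tested, and it is left out of the counts that follow. Under siLINC01534-1, 6 of the other 8 genes were called against parent, all 6 higher, where 46.3% of all tested genes were called and 21.8% were called higher. Under siLINC01534-2, 2 of the 8 were called, both higher, against 22.8% and 11.1% of all tested genes. The share called there is close to that of all tested genes. These comparisons share the parent libraries. Between the siRNAs, 3 of the 8 were higher under siLINC01534-1 and 0 lower, against 41.8% of all tested genes called and 19.5% called higher. The median log2 difference of the 8 genes from parent was 0.42 under siLINC01534-1 and 0.24 under siLINC01534-2, where that of all tested genes was 0 and 0.002. Groups of 2 libraries were often apart. Both siLINC01534-1 libraries were above both parent libraries for 37.5% of all tested genes and below them for 38.3%. The shares were 32.1% and 32.7% for siLINC01534-2 against parent, and 36.5% and 36.9% for siLINC01534-1 against siLINC01534-2. In bulk RNA, a change in the number of cells that express a gene and a change in its RNA per cell cannot be told apart.

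**Figure D1:**
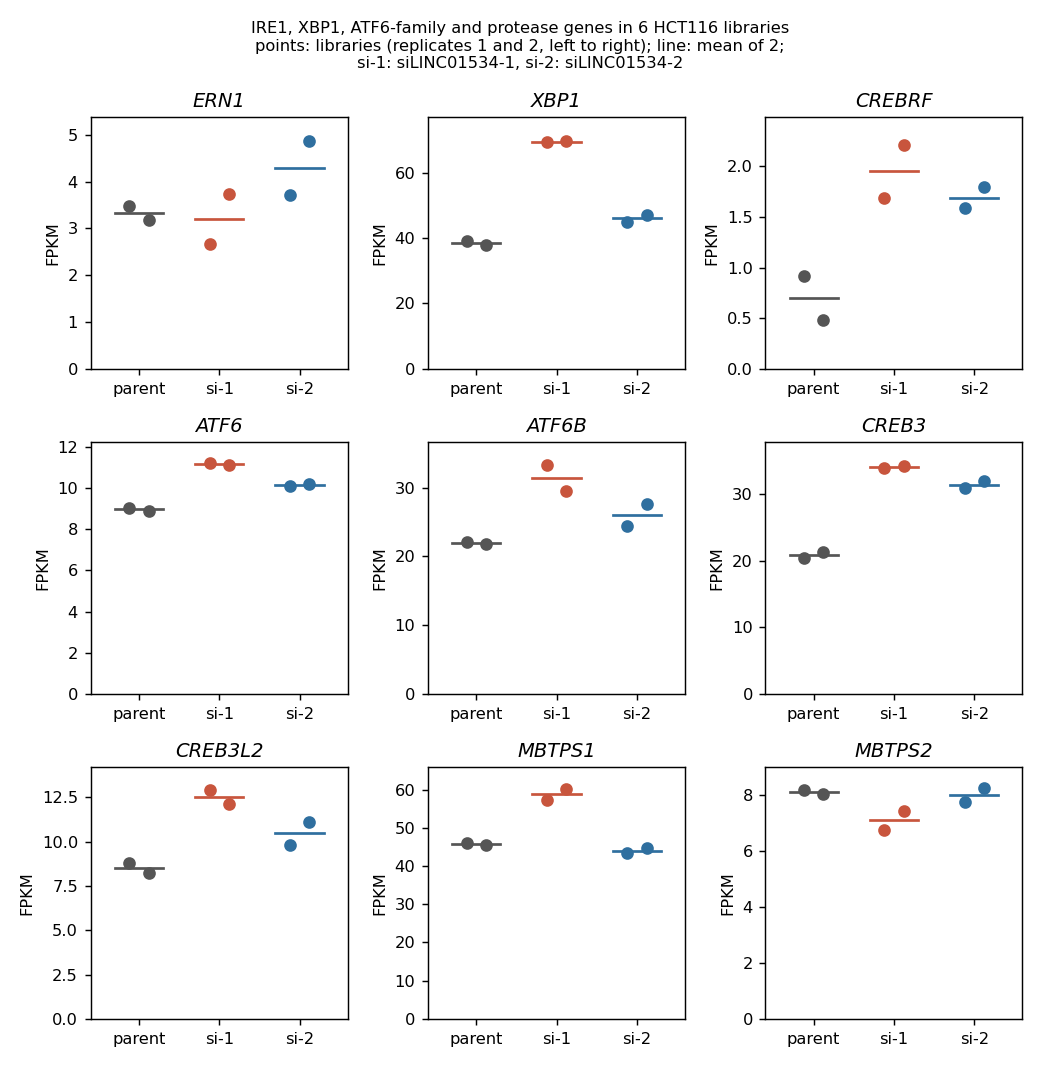
FPKM (vertical axes, from 0) of the 9 genes in the 2 parent libraries, the 2 siLINC01534-1 libraries (si-1) and the 2 siLINC01534-2 libraries (si-2), with points for libraries and lines for group means. XBP1 lies near 69.5 under siLINC01534-1 and near 38.5 in parent cells, whereas the libraries of ERN1 overlap between these groups.

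ERN1, which encodes IRE1, did not pass the test in any comparison. It was the second lowest of the 9 genes in each group, and its values rest on an estimated 208 to 446 reads per library. Its FPKM was 3.48 and 3.18 in parent cells, 2.66 and 3.73 under siLINC01534-1, and 3.71 and 4.86 under siLINC01534-2. Of the siLINC01534-1 libraries, 1 was above and 1 below parent, while both siLINC01534-2 libraries were above parent by a margin that did not pass. The log2 difference from parent was -0.06 under siLINC01534-1 (95% interval -0.47 to 0.35) and 0.28 under siLINC01534-2 (-0.13 to 0.69), and that between the siRNAs was -0.34 (-0.75 to 0.07). These intervals are the widest of the 9 genes apart from those of CREBRF. ERN1 lies on chromosome 17 of GRCh37 (hg19) from 62116440 to 62208179, minus strand, and 2 unnamed genes on the other strand overlap its exons.

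XBP1, the transcription factor whose mRNA is the splicing substrate of IRE1, rose with both siRNAs and more under siLINC01534-1. Its FPKM was 39 and 37.9 in parent cells, 69.4 and 69.6 under siLINC01534-1, and 45 and 47.1 under siLINC01534-2, so that the 3 groups did not overlap. The ratio of mean FPKM to parent was 1.81 under siLINC01534-1 (log2 difference 0.84, standard error 0.0396, adjusted p = 0.000117). It was 1.2 under siLINC01534-2 (log2 difference 0.25, standard error 0.0396, adjusted p = 0.0117). The siRNAs themselves differed by 0.58 on the log2 scale (adjusted p = 0.000405). The rise under siLINC01534-2 kept its direction but was no longer called without the first parent library (adjusted p = 0.053), without the second (0.0667) or without the second siLINC01534-2 library (0.06).

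XBP1 was also the only one of the 9 genes with an exact ER stress response element in its promoter, and the sequence is shown for that reason. The element, bound by ATF6 with the factor NF-Y, was searched as CCAAT, then 9 bases of any kind, then CCACG, on both strands of the 300 bases from 250 before to 50 after each RefSeq transcript start (GRCh38.p14). It was found in 27 of 35116 promoters (0.0769%), among them that of HSPA5, the ER chaperone BiP and a standard ATF6 target. All 9 genes had promoter entries, 11 in all, since XBP1 and CREB3L2 had 2 starts each. The promoter of XBP1 at chr22:28800520-28800819, minus strand, is given 5′ to 3′ with the fixed letters of the element in capitals. It is followed by the matches of XBP1, from -52 to -34 relative to the start, and of HSPA5, from -66 to -48.
XBP1 promoter: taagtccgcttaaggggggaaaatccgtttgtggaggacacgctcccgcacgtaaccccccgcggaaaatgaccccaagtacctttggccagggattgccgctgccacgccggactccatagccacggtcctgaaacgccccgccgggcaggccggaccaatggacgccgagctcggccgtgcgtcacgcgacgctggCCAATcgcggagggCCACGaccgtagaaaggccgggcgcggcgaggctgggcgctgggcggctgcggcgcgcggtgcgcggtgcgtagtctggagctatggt
XBP1 element: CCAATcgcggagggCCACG
HSPA5 element: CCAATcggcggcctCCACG

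The letters at the ends are the rule of the search, and only the bases between them can differ. A match is a description of this window and not evidence of binding. The second XBP1 start held no match. None of the 9 genes matched the unfolded protein response element TGACGTGG (0.729% of promoters) or the amino acid response element TGATGNAAT (0.991%), and CREB3L2 alone matched the cAMP response element TGACGTCA (1.85%).

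ATF6 and its paralog ATF6B, the ER-bound factors released by the Golgi proteases, both rose under siLINC01534-1. ATF6 had an FPKM of 9.04 and 8.89 in parent cells, 11.2 and 11.1 under siLINC01534-1, and 10.1 and 10.2 under siLINC01534-2. The 3 groups of ATF6 did not overlap, and the spread within each was narrow (SD 0.105, 0.102 and 0.0771, n = 2 each). Of all tested genes, 37.5% had both siLINC01534-1 libraries above both parent libraries, and 32.1% had both siLINC01534-2 libraries above them. The log2 difference of ATF6 from parent was 0.29 under siLINC01534-1 (adjusted p = 0.00535). Under siLINC01534-2 it was 0.16 (95% interval 0.04 to 0.28) and missed the threshold after adjustment (adjusted p = 0.061). Between the siRNAs it was 0.13 (adjusted p = 0.0808).

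ATF6B was more abundant than ATF6 in every library. Its FPKM was 22.1 and 21.8 in parent cells, 33.3 and 29.5 under siLINC01534-1, and 24.4 and 27.7 under siLINC01534-2. All siRNA libraries were thus above parent, with a wider spread within each siRNA group than within parent. The ratio to parent was 1.43 under siLINC01534-1 (log2 difference 0.49, adjusted p = 0.00543) and 1.19 under siLINC01534-2 (log2 difference 0.23, adjusted p = 0.094). The siRNAs differed by 0.26 at the edge of the threshold (adjusted p = 0.0494). That call was lost without either parent library (adjusted p = 0.0936 and 0.0939), without either siLINC01534-1 library (0.205 and 0.0581) and without the first siLINC01534-2 library (0.196). Exons of ATF6B (chromosome 6 of GRCh37, 32083041 to 32096030, minus strand) overlap those of TNXB on the same strand, and how reads were divided between them is not given in the sources used here.

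CREB3, also called Luman, is an ER-bound factor of the same build that is cut by site-1 and site-2 protease. After CREBRF, it had the largest ratio to parent of the 9 genes under siLINC01534-2. Its FPKM was 20.4 and 21.4 in parent cells, 34 and 34.3 under siLINC01534-1, and 30.9 and 32 under siLINC01534-2. All siRNA libraries stood well above parent, and the siRNA groups lay close together. The log2 difference from parent was 0.68 under siLINC01534-1 (standard error 0.0438, adjusted p = 0.000247) and 0.57 under siLINC01534-2 (adjusted p = 0.00179). CREB3 was the only one of the 9 genes called against parent under siLINC01534-2 whichever library was left out. The difference between the siRNAs was 0.12 (95% interval 0.01 to 0.23, adjusted p = 0.084). CREB3 (chromosome 9, 35732595 to 35736996, plus strand) shares exonic sequence with GBA2 on the other strand.

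CREB3L2, a further CREB3-family factor that promotes expression of secretory pathway genes, had an FPKM of 8.81 and 8.24 in parent cells, 12.9 and 12.1 under siLINC01534-1, and 9.83 and 11.1 under siLINC01534-2. Both siRNA groups were above parent and did not overlap each other. It rose under siLINC01534-1 (ratio 1.47, log2 difference 0.5, adjusted p = 0.00389). Under siLINC01534-2 the ratio was 1.23 and the log2 difference 0.27 (95% interval 0.08 to 0.45, adjusted p = 0.0572). The siRNAs differed by 0.24 (0.05 to 0.43, adjusted p = 0.051).

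CREBRF, the CREB3 regulatory factor, is known to bind CREB3 and lower its activity. It was the lowest of the 9 genes in each group and had the largest ratios to parent. Its FPKM was 0.912 and 0.484 in parent cells, 1.69 and 2.21 under siLINC01534-1, and 1.59 and 1.79 under siLINC01534-2. Every siRNA library was above both parent libraries, and the siRNA groups overlapped. The ratio of mean FPKM was 2.79 under siLINC01534-1 and 2.42 under siLINC01534-2, on an estimated 37 to 170 reads per library. On the log2(FPKM + 1) scale, which understates the change of so low a gene, the differences were 0.8 (standard error 0.173, adjusted p = 0.0139) and 0.67 (adjusted p = 0.0436), in a test that CREBRF entered only through its siRNA libraries. With no filter on low values the adjusted p was 0.0229 and 0.0674. With a pseudocount of 0.1 the log2 differences were 1.4 and 1.22, both still called (adjusted p = 0.0163 and 0.046). The call under siLINC01534-2 was lost whichever library was left out, with adjusted p from 0.0563 to 0.156, and that under siLINC01534-1 was lost without its second library (adjusted p = 0.0638).

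The promoter of CREBRF is shown because it held 2 copies of the G-box CACGTG, a palindrome bound by basic helix-loop-helix factors such as TFE3, USF1 and MYC. The G-box was present in 7.26% of the 35116 promoters and, among the 9 genes, in CREBRF and ATF6B. The copies in CREBRF lay from -129 to -124 and from -14 to -9 relative to the start. The promoter at chr5:173056102-173056401 of GRCh38.p14, plus strand, is given 5′ to 3′ with both copies in capitals.
CREBRF promoter: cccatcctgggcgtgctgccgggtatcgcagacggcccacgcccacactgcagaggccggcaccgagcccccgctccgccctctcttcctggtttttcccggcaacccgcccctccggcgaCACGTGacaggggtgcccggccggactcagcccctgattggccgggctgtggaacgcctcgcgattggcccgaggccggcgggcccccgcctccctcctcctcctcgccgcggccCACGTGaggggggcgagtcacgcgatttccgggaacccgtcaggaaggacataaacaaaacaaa

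The proteases were not called alike. MBTPS1 (site-1 protease) was the most abundant of the 9 genes in parent cells, at 46.1 and 45.4 FPKM. It was 57.4 and 60.1 under siLINC01534-1 and 43.5 and 44.6 under siLINC01534-2. MBTPS1 thus rose under siLINC01534-1 alone, with a log2 difference from parent of 0.35 (adjusted p = 0.00146). Under siLINC01534-2 both libraries were slightly below parent, and the difference was -0.05 (95% interval -0.15 to 0.04, adjusted p = 0.361). The difference between the siRNAs was 0.41 (standard error 0.0393, adjusted p = 0.00116).

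MBTPS2 (site-2 protease) was not called in any comparison. Its FPKM was 8.19 and 8.03 in parent cells, 6.76 and 7.44 under siLINC01534-1, and 7.77 and 8.25 under siLINC01534-2. It was the single gene of the 9 with both siLINC01534-1 libraries below parent. The log2 difference was -0.17 under siLINC01534-1 (adjusted p = 0.0869) and -0.02 under siLINC01534-2 (95% interval -0.18 to 0.15). Exons of MBTPS2, on chromosome X, overlap the annotated YY2 gene on the same strand.

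**Figure D2:**
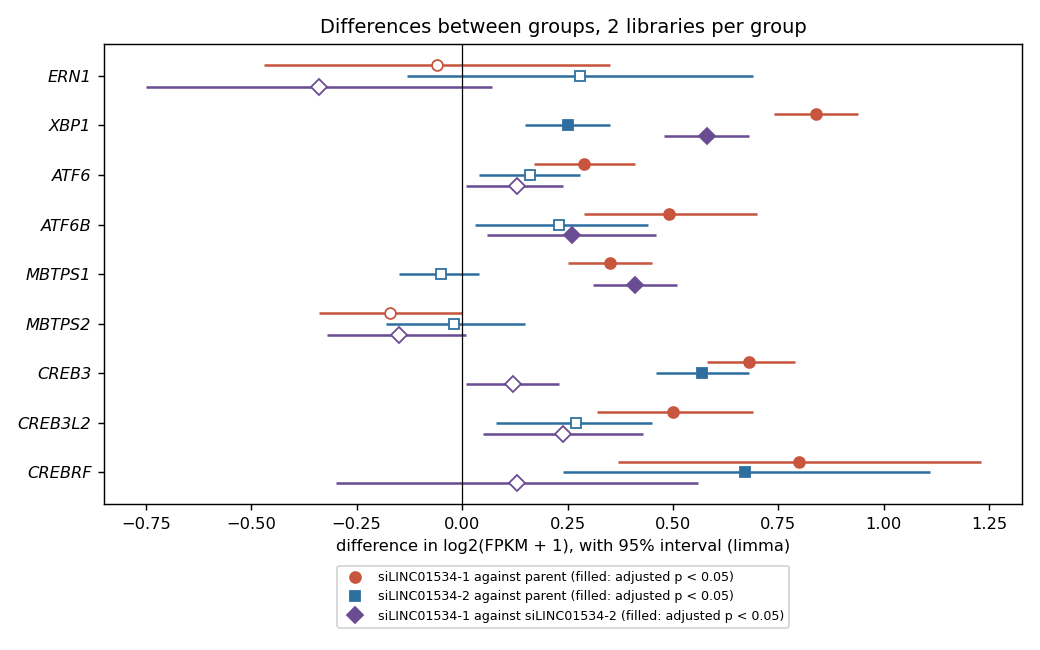
Differences in log2(FPKM + 1) between groups (horizontal axis) for the 9 genes, from limma with 95% intervals, filled where the adjusted p is under 0.05. XBP1, CREB3 and CREBRF are filled for both siRNAs against parent, and XBP1, ATF6B and MBTPS1 for the siRNA against siRNA comparison.

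Levels per transcript length changed order between the groups. In parent, mean FPKM fell from MBTPS1 (45.8) through XBP1 (38.5), ATF6B (22), CREB3 (20.9), ATF6 (8.97), CREB3L2 (8.52), MBTPS2 (8.11) and ERN1 (3.33) to CREBRF (0.698). The libraries of neighbours in this order did not overlap, although ATF6, CREB3L2 and MBTPS2 had means close to each other. With both siRNAs XBP1 stood above MBTPS1, at 69.5 against 58.7 under siLINC01534-1 and at 46.1 against 44 under siLINC01534-2. CREB3 stood above ATF6B in the same way, at 34.2 against 31.4 and at 31.5 against 26.1. CREB3L2 stood above ATF6 under siLINC01534-1, at 12.5 against 11.2 without overlap. Under siLINC01534-2, CREB3L2 (10.5) and ATF6 (10.2) overlapped.

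The genes that XBP1 and ATF6 are known to induce were examined next. These lists were chosen with earlier results of these data known. Each gene was placed in a single list, and which factor raised a gene was not tested. Of 10 ATF6 targets, 10 were called higher under siLINC01534-1 and 9 under siLINC01534-2, with median log2 differences of 0.66 and 0.67. Of all tested genes, 21.8% and 11.1% were called higher. HSPA5 had an FPKM of 255 and 254 in parent cells, 740 and 724 under siLINC01534-1, and 695 and 757 under siLINC01534-2. HERPUD1, which acts in ER-associated degradation, had ratios to parent of 2.65 and 2.63 under siLINC01534-1 and siLINC01534-2. HYOU1, an ER chaperone, had ratios of 2.24 and 1.76. SEL1L, the partner of the HRD1 ubiquitin ligase, had ratios of 1.84 and 1.8. CALR, the lectin chaperone calreticulin, was the exception, at 567 and 596 in parent cells, 848 and 828 under siLINC01534-1, and 576 and 579 under siLINC01534-2.

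Of 17 XBP1 targets, 15 were called higher and 1 lower under siLINC01534-1, and 11 higher and 0 lower under siLINC01534-2. The medians were 0.41 and 0.22, and the shares of all tested genes called higher were again 21.8% and 11.1%. DNAJB9, an HSP40 cochaperone of BiP that also restrains IRE1, had the largest change of the list under each siRNA. Its FPKM was 6.19 and 5.99 in parent cells, 35.5 and 37.7 under siLINC01534-1, and 18.1 and 18.9 under siLINC01534-2, and the siRNAs differed by 0.94 on the log2 scale (adjusted p = 0.000265). SEC24D, a cargo adaptor of COPII vesicles, had ratios to parent of 2.79 under siLINC01534-1 and 1.86 under siLINC01534-2. The ratios were 1.76 and 1.59 for DNAJC3, an inhibitor of eIF2α kinases and BiP cochaperone, and 1.81 and 1.47 for EDEM1, a mannosidase-like factor of ER-associated degradation. Fewer of the 17 were called under siLINC01534-2 when a parent or siLINC01534-2 library was left out. The share of all tested genes called in those fits was not recorded, so the drop cannot be set against it.

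**Figure D3:**
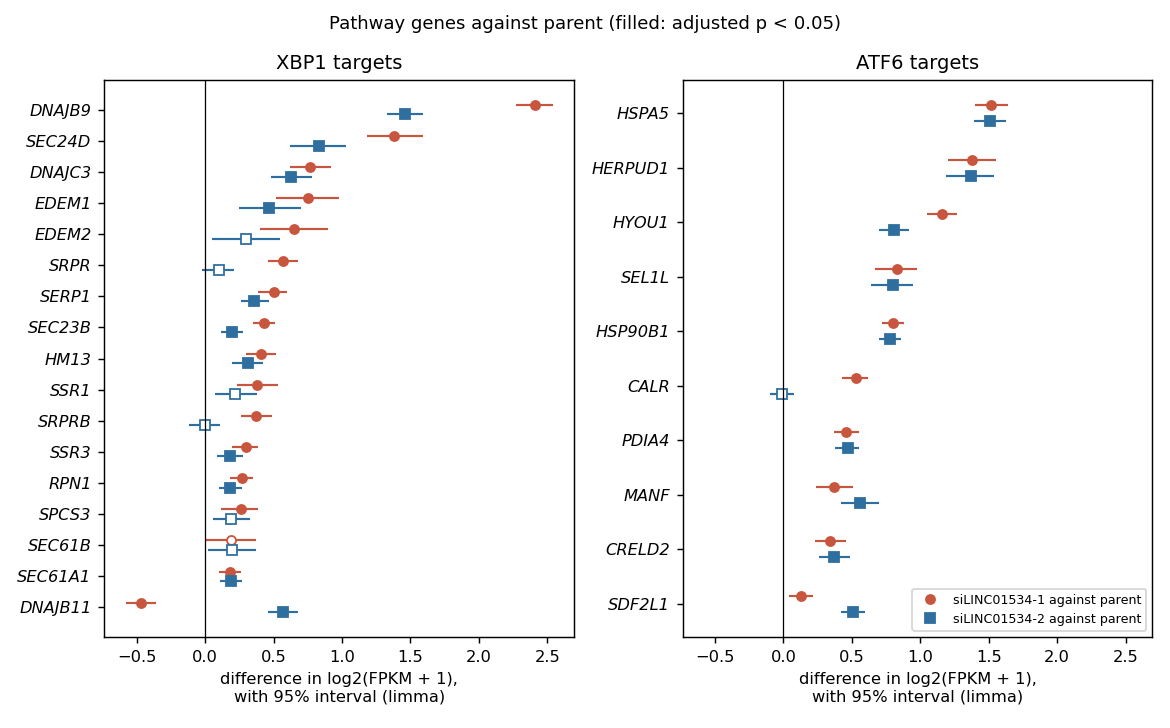
Differences from parent in log2(FPKM + 1) (horizontal axes, with 95% intervals from limma) for 17 XBP1 targets and 10 ATF6 targets, as circles for siLINC01534-1 and squares for siLINC01534-2, filled where the adjusted p is under 0.05. DNAJB9 reaches 2.41 and 1.46, and DNAJB11 lies at -0.47 and 0.57.

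The genes around IRE1 itself showed no common direction. Of 14 tested partners of IRE1 and of XBP1 splicing, 5 were higher and 4 lower under siLINC01534-1, and 3 higher and 2 lower under siLINC01534-2, where 46.3% and 22.8% of all tested genes were called in either direction. With each siRNA, fewer were called when a parent library or a library of that siRNA was left out. The share of all tested genes called in those fits was not recorded. RTCB, the ligase that joins the cut XBP1 exons, was not called with either siRNA, at 45.2 and 46.2 FPKM in parent cells, 43.1 and 46.1 under siLINC01534-1, and 48.9 and 47 under siLINC01534-2. ZBTB8OS of the same list was not called with either siRNA. C14orf166 was called higher (ratio to parent 1.15) and FAM98B lower (0.836) under siLINC01534-1 only. DDX1 was called lower (0.882) under siLINC01534-2 only. SYVN1, the HRD1 ubiquitin ligase, had ratios to parent of 1.8 and 1.42 under siLINC01534-1 and siLINC01534-2. TMBIM6, an ER membrane protein that inhibits IRE1, had ratios of 1.26 and 1.12, all 4 changes of this pair of genes being called. TRAF2, the adaptor that links IRE1 to JNK signalling, fell to 0.663 and 0.745 of the parent level. ERN2, the IRE1 paralog of secretory epithelia, had a mean FPKM under 1 and was not tested.

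Substrates of the wider decay activity of IRE1 did not move together either. Of 7 tested, 2 were higher and 4 lower under siLINC01534-1, and 1 higher and 2 lower under siLINC01534-2, against 46.3% and 22.8% of all tested genes. Fewer were called under siLINC01534-2 when a parent or siLINC01534-2 library was left out, in fits whose share of all tested genes called was not recorded. SCARA3 fell to 0.559 and 0.75 of parent, and PMP22 to 0.902 and 0.714. BLOC1S1, the most commonly used marker of this decay, was named after its values were seen. Its FPKM was 72.4 and 78.4 in parent cells, 22.6 and 24.1 under siLINC01534-1, and 82.5 and 74.4 under siLINC01534-2. It therefore fell under siLINC01534-1 (log2 difference -1.65, adjusted p = 8.52e-05), whereas under siLINC01534-2 the libraries overlapped parent (0.06, adjusted p = 0.598).

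Of 12 tested genes of the site-1 and site-2 protease route, 5 were higher and 2 lower under siLINC01534-1, and 1 higher and 1 lower under siLINC01534-2, against 46.3% and 22.8% of all tested genes. Neither call under siLINC01534-2 was firm, as fewer were called when any library was left out, and 0 with no filter. Under siLINC01534-1, fewer were called without either parent library or its second library. The share of all tested genes called in these fits was not recorded. SREBF1 and SREBF2, whose products are the sterol regulators cut by both proteases, were not called with either siRNA. Under siLINC01534-1, SCAP (ratio to parent 1.18), INSIG2 (1.29), PDIA5 (1.34) and WFS1 (1.5) were called higher and INSIG1 (0.712) lower. None of these was called under siLINC01534-2. NUCB1, a Golgi protein known to hinder cleavage of ATF6, had ratios of 1.26 and 1.18. GNPTAB, whose product is matured by site-1 protease, had ratios of 0.892 and 0.876 (adjusted p = 0.0457 and 0.05, the latter under the threshold before rounding). CREB3L1 and CREB3L3 had a mean FPKM under 1 and were not tested. Over all 5 lists, 48 of 60 genes were called under siLINC01534-1 and 30 of 60 under siLINC01534-2, against 46.3% and 22.8% of all tested genes. The latter count fell when a parent or siLINC01534-2 library was left out, in fits whose share of all tested genes called was not recorded.

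Members of these lists were also called in opposite directions with the siRNAs. DNAJB11, an ER-resident HSP40 cochaperone, had an FPKM of 70.2 and 73.8 in parent cells, 50.8 and 52.5 under siLINC01534-1, and 105 and 110 under siLINC01534-2. PDIA6, a protein disulfide isomerase that binds IRE1, was at 114 and 116 in parent cells, 83.7 and 82.5 under siLINC01534-1, and 130 and 129 under siLINC01534-2. PER1, a circadian regulator, fell to 0.774 of parent under siLINC01534-1 and rose to 1.26 under siLINC01534-2. In each of these genes the parent libraries lay between those of the siRNAs, and the siRNAs differed by -1.04, -0.63 and -0.65 on the log2 scale (adjusted p = 0.000123, 0.000186 and 0.000658). PTPN1, an ER-anchored tyrosine phosphatase also named after its values were seen, was at 36.1 and 36.4 in parent cells, 18.4 and 17.1 under siLINC01534-1, and 38.7 and 37.3 under siLINC01534-2.

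**Figure D4:**
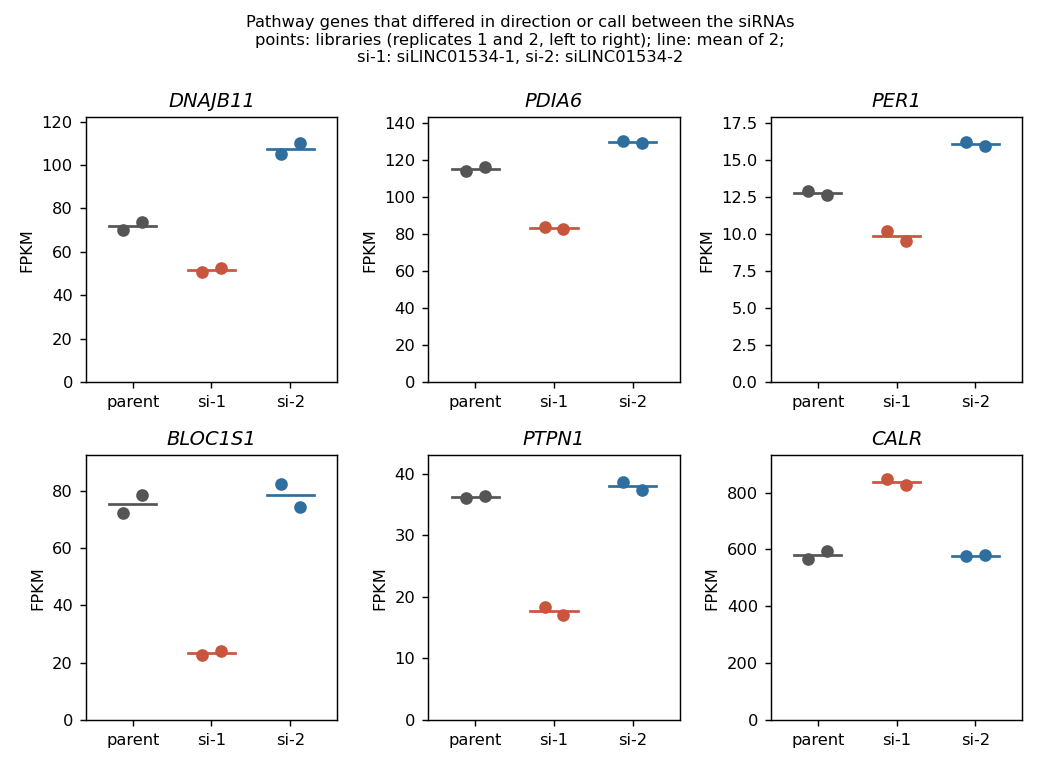
FPKM (vertical axes, from 0) of 6 pathway genes in the 6 libraries, with points for libraries and lines for group means. DNAJB11, PDIA6 and PER1 lie below parent under siLINC01534-1 and above it under siLINC01534-2, while BLOC1S1 and PTPN1 are low and CALR is high under siLINC01534-1 only.

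The genes most like XBP1, ERN1 and ATF6 over the 6 libraries were sought among 9106 tested genes averaging 5 FPKM or more, by the root-mean-square distance of log2 values centred on parent. For XBP1 they were PSAP (0.0276), a precursor of lysosomal saposins, CALCOCO2 (0.0334), an autophagy receptor, and TNFRSF10D (0.0377), a decoy receptor for TRAIL. PSAP, for example, was at 192 and 185 FPKM in parent cells, 335 and 341 under siLINC01534-1, and 227 and 236 under siLINC01534-2. The genes nearest to ERN1 were TPST1 (0.068), GALNS (0.072) and CHMP4A (0.094), and those nearest to ATF6 were PRKAA1 (0.0213), WDR41 (0.0219) and SSR3 (0.0242). SSR3, a subunit of the translocon-associated protein complex, is also among the XBP1 targets above. These distances describe 6 libraries that share their groups, and they carry no test.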

How the data were processed

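The authors prepared stranded poly(A) libraries, read them from 1 end over 75 bases, aligned the reads on hg19 by TopHat2 2.0.13, Bowtie2 2.2.3 and SAMtools 0.1.19, and deposited 1 FPKM per gene symbol and library from Cuffnorm (Cufflinks 2.2.1). The annotation and the use of strand in counting are not given in the sources used here. The labels give 2 libraries per group, while the methods speak of cultures in triplicate, and the extraction kits named by the 2 sources differ. Groups and replicate numbers came from the titles of the libraries.

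From the deposited FPKM, log2(FPKM + 1) of 12203 genes, those averaging 1 FPKM or more, was fitted with limma 3.58.1 in R 4.3.3 (1 mean per group over all 6 libraries, trended eBayes, two-sided, Benjamini-Hochberg over all tested genes). Ratios are of mean FPKM without a pseudocount. The test was run on simulated data with independent normal noise and few changed genes. That setting does not measure its error rate in these data. Depth was estimated from the FPKM worth 1 read in low genes, over 384 genes with 1 annotated transcript and 200 bases taken off its length (quartiles for the first parent library 9700000 and 10300000), and reads per gene from its longest transcript in GENCODE v44 on GRCh37. Of 5365 low genes examined for depth, 52.9% had values close to whole reads, and the 384 genes were drawn from these. Promoters are RefSeq sequences. Other steps ran in Python 3.11.15 (numpy 2.4.6, pandas 2.3.3, scipy 1.17.1).

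The 9 genes, the lists and the motifs were chosen with earlier results of these data known. Genes named from a list are those called in the same direction with each siRNA against parent, at most 4 per list by the smaller of their changes, and those called in opposite directions. BLOC1S1, PTPN1, CALR, the untested genes, RTCB, ZBTB8OS, C14orf166, FAM98B, DDX1, SREBF1, SREBF2, SCAP, INSIG1, INSIG2, PDIA5 and WFS1 fall outside that rule. Alternatives were another pseudocount, no filter or a minimum mean of 5, quantile normalization, the 2 compared groups alone, the replicate number as a block, and leaving out each library.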

Additional observations from a re-analysis of the deposited data

Results flagged for a closer look

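For 3 of the 9 genes the change against parent differed between the siRNAs, by limma's test of siLINC01534-1 against siLINC01534-2, which called 41.8% of all tested genes. The log2 difference was 0.58 for XBP1, 0.41 for MBTPS1 and 0.26 for ATF6B. For each gene both siLINC01534-1 libraries were above both siLINC01534-2 libraries, as they were for 36.5% of all tested genes. Over all alternatives run, the adjusted p was at most 0.00766 for XBP1 and 0.0123 for MBTPS1, whereas that for ATF6B ranged from 0.0332 to 0.205. What sets the siRNAs apart was not tested.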

How the results depend on the processing

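Leaving out 1 library moved the number of the 9 genes called, CREBRF included, against parent from 7 to between 6 and 7 under siLINC01534-1, from 3 to between 1 and 2 under siLINC01534-2 (1 without either parent library or without the second siLINC01534-2 library), and that between the siRNAs from 3 to between 2 and 4. Quantile normalization gave 5 genes between the siRNAs. Of the genes in the pathway lists, 40 to 48 were called under siLINC01534-1, 18 to 30 under siLINC01534-2 and 21 to 27 between the siRNAs. The share of all tested genes called was not recorded for the fits without 1 library or with quantile normalization. The counts from these fits therefore cannot be set against it, and they carry no result about the 9 genes or the lists. The sign turned in 3 uncalled differences. ERN1 under siLINC01534-1 ranged from -0.24 to 0.13, MBTPS2 under siLINC01534-2 from -0.054 to 0.023, and CREBRF between the siRNAs from -0.0015 to 0.26.

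Libraries of the same number did not deviate together over 12203 genes (correlations of 0.114, 0.027 and -0.0456), so the numbers were not taken as pairs. With the replicate number as a block, and CREBRF aside, the genes called against parent under each siRNA were those of the main fit. Of the list genes, 45 were called under siLINC01534-1, 28 under siLINC01534-2 and 27 between the siRNAs. The share of all tested genes called with the block was not recorded. CREBRF under siLINC01534-2 was not called with the block (adjusted p = 0.0801), with no filter (0.0674), after quantile normalization (0.0585) or with 2 groups alone (0.059). ATF6B between the siRNAs was not called with the block (0.0813), with no filter (0.0837) or with 2 groups alone (0.0938). CREB3L2 was called between the siRNAs with a pseudocount of 0.1 (0.0469), a minimum mean of 5 (0.044) or quantile normalization (0.0366), and under siLINC01534-2 with the minimum of 5 (0.0457). CREB3 was called between the siRNAs after quantile normalization (0.0323). The causes were not tested. CREBRF rests on the fewest estimated reads of the 9 genes, 37 to 170 per library, and each group held 2 libraries.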
